A study of Mus musculus with 9 samples.

Results

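The 10 genes Slc26a3, Slc26a2, Slc9a3, Slc9a2, Aqp8, Aqp4, Scnn1a, Cftr, Slc12a2 and Atp12a encode exchangers, channels, a cotransporter, a pump and water pores that move salt and water across the colon epithelium. They were chosen by name from a count table of 27719 genes, all 10 were found, and all 10 passed the filter on low counts with 12566 genes in total. The values come from full-length cDNA of colon total RNA, read on an Oxford Nanopore instrument, in 9 C57BL/6J mice (3 in each group, 1 library per mouse). The control group drank distilled water, the DSS group drank 2.5% dextran sodium sulfate (DSS), a polymer that injures the colon lining, for 7 days, and the DSS + EA group drank the same DSS and also received electroacupuncture (EA). EA is a weak current passed through needles, given at both ST36 acupoints (2 Hz, 0.2 mA, 30 minutes a session) once a day. It was started once modeling had run for 5 days and lasted 5 days. The other 2 groups were only held, for as long a time, so no group received needling or current without DSS. Between 2627695 and 4235576 reads per mouse were counted on genes. The RNA came from colon tissue as a whole, and in such bulk samples fewer cells of a type and less RNA per cell cannot be told apart.

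Colonocytes absorb sodium chloride mainly by pairing a sodium/proton exchanger with a chloride/bicarbonate exchanger on the luminal membrane, and in the distal colon also through the epithelial sodium channel ENaC. Crypt cells secrete chloride, which enters from the blood side through the cotransporter NKCC1 (Slc12a2) and leaves through the channel CFTR, and water follows the salt. Loss of SLC26A3 in people causes congenital chloride diarrhea, and reduced sodium and chloride absorption is a known feature of the inflamed colon.

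Compared with the control group, 8 of the 10 genes fell in the DSS group and none rose, while 19.5% of all genes tested fell. A gene was called at a Benjamini-Hochberg adjusted p under 0.05 over all 12566 genes in edgeR's quasi-likelihood test, a rule that 40.9% of all genes passed in either direction. The exceptions were Slc9a3 and Slc12a2. The median log2 fold change of the 10 genes was -2.22, against 0.02 over all genes. Compared with the DSS group, 7 of the 10 genes rose in the DSS + EA group and none fell, beside 17.2% of all genes that rose and 35.5% called in either direction. The median log2 fold change there was 1.98 against -0.02. Slc9a3, Scnn1a and Slc12a2 were not called there. The same 3 DSS mice stand on one side of each of these comparisons, whose values are given side by side and are not independent. The count of 7 was 3 without DSS mouse 2, 4 without DSS + EA mouse 1 or without DSS + EA mouse 3, and 4 when only these 2 groups entered the fit. Between the DSS + EA and control groups, edgeR called 0 of the 10 genes (0 at an unadjusted p under 0.05, and 0 with DESeq2), beside 3.64% of all genes, and the median log2 fold change was -0.22.

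The range of all 3 mice in a group lay apart from that of the other group for 7 of the 10 genes in DSS against control, as it did for 52% of all genes. It lay apart for 8 genes in DSS + EA against DSS (47.4% of all genes) and for 5 in DSS + EA against control (32.2% of all genes). With differentially expressed genes (DEGs) taken as those past 2.5 on the log2 scale, up or down, at an unadjusted P under 0.01, Aqp8 and Atp12a were lower DEGs in DSS against control (3.57% of all genes, 10.2% in both directions) and higher DEGs in DSS + EA against DSS (2.91% and 6.41%). None of the 10 was a DEG between DSS + EA and control (2.08% of all genes).

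The stretch of 250 bases before the transcription start was taken from RefSeq promoters (GRCm38.p6). It was read for Slc26a3, Slc9a3, Aqp8 and Cftr, and not for the rest of the 10 genes. It is printed for the 3 of them that were called in both DSS comparisons. Each runs 5′ to 3′ along the gene's own strand, here the plus strand, up to the base before the start, and capitals mark a motif match. The stretches are chr12:31437969-31438218 for Slc26a3, whose start lies inside the annotated span of the gene, chr7:123462044-123462293 for Aqp8 and chr6:18170437-18170686 for Cftr.
Slc26a3: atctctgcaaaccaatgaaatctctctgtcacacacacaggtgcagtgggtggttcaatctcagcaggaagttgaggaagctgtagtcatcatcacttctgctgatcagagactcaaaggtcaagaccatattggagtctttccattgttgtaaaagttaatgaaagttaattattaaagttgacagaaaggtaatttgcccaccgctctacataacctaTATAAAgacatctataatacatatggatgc
Aqp8: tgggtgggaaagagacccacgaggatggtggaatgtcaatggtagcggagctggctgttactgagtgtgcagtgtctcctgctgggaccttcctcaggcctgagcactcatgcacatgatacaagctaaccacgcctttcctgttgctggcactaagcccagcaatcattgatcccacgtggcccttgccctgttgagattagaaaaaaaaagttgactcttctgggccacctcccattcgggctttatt
Cftr: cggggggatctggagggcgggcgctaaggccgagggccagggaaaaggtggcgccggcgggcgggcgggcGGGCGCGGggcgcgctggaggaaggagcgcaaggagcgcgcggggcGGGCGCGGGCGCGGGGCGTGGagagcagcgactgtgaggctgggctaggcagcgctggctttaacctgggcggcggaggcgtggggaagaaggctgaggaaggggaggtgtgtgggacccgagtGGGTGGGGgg
These starts differ in base composition: G and C make up 38.8% of the Slc26a3 stretch, 52.4% of that of Aqp8 and 76.4% of that of Cftr, beside 67.6% for Slc9a3. Motifs of 4 kinds of factor known from gut epithelium and the TATA box were searched on both strands. CAAAGTCCA, for HNF4A, occurred in 0.387% of 32536 promoter stretches of the same length, and TTTATNG, for CDX2, in 9.74%. AGATAA, for GATA factors, occurred in 9.97%, CCNCNCCC, for KLF factors, in 46.2%, and TATAAA, the core of the TATA box, in 12.3%. Slc26a3 holds TATAAA, whose first base lies at -30 from the start. Cftr holds 5 KLF-type matches on the minus strand, first bases at -180, -134, -128, -121 and -10, of which those at -134, -128 and -121 overlap. Slc9a3 holds 2, at -73 and -60, and Aqp8 holds no match, so no motif searched was shared by the printed stretches. A match describes letters only.

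**Figure D1:**
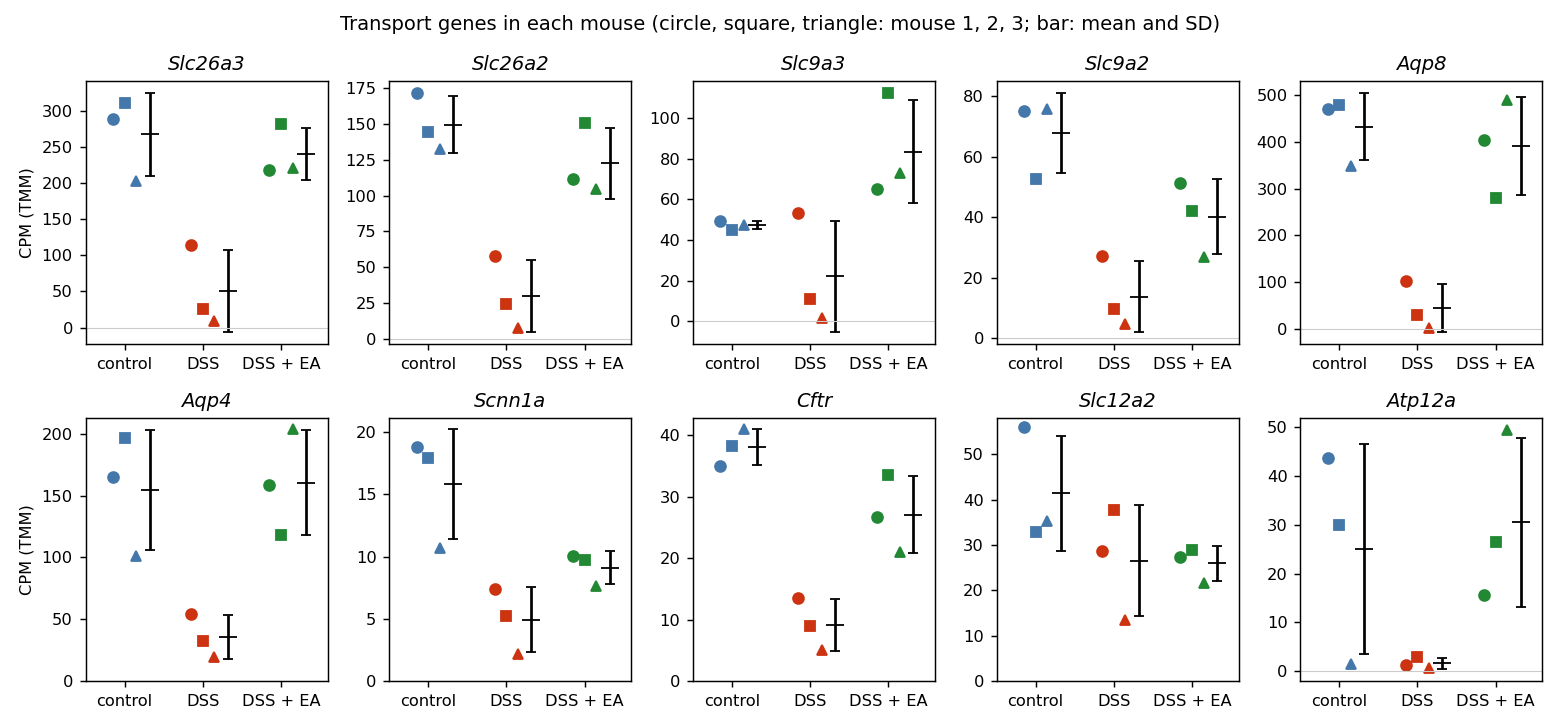
Library-scaled counts (CPM, vertical axes) of the 10 transport genes by mouse and group, with symbols for mouse 1, 2 and 3 and a bar for the mean and SD. DSS mouse 3 was the lowest DSS mouse in all 10 panels, and Atp12a of control mouse 3 (1.53 CPM) lay with the DSS mice.

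Slc26a3 (DRA) exchanges luminal chloride for bicarbonate, and it lies on chromosome 12 (chr12:31390871-31473917, plus strand; here and for the other genes from GENCODE M21 on GRCm38, the assembly that mm10 also denotes). Its levels, in CPM (counts put on the scale of 1 library total, after TMM adjustment), were 289.7, 312 and 203 in control mice 1, 2 and 3, 115, 25.9 and 9.67 in the DSS mice and 219, 282 and 221 in the DSS + EA mice. All DSS mice lay below all others, and DSS mouse 3 was the lowest. Slc26a3 fell 5.35-fold with DSS, a log2 fold change of -2.42 (SE 0.69, adjusted p = 0.0187), and was 4.81-fold higher with DSS + EA than with DSS, a log2 fold change of 2.27 (SE 0.68, adjusted p = 0.0280). With 1 mouse left out at a time, these log2 fold changes ran from -3.88 (without DSS mouse 1) to -1.93 (without DSS mouse 3) and from 1.78 (without DSS mouse 3) to 3.69 (without DSS mouse 1). The first call was lost without DSS mouse 2 (adjusted p = 0.0681). The second was lost without DSS mouse 2 (0.0962), without DSS + EA mouse 1 (0.0532), mouse 2 (0.0702) or mouse 3 (0.0633), and in a fit of only the 2 groups (0.0622).

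Slc26a2 (DTDST), a sulfate transporter of the same family that supplies sulfate for mucins and proteoglycans, lies on chromosome 18 (chr18:61192919-61211612, minus strand). It stood at 172, 144 and 133 CPM in the control mice, 57.6, 24.3 and 7.80 CPM in the DSS mice and 112, 151 and 105 CPM in the DSS + EA mice, again with the DSS group below both others and no overlap. Compared with the control group it fell 5.02-fold with DSS, a log2 fold change of -2.33 (SE 0.54, adjusted p = 0.00711), and compared with the DSS group it rose 4.10-fold with DSS + EA, a log2 fold change of 2.04 (SE 0.53, adjusted p = 0.0154). The ranges with 1 mouse left out were from -3.18 (without DSS mouse 1) to -1.88 (without DSS mouse 3) and from 1.59 (without DSS mouse 3) to 2.85 (without DSS mouse 1), and without DSS mouse 2 the second call was lost (adjusted p = 0.0594). The mean of the DSS + EA mice was 81.8% of the control mean for Slc26a2 and 89.9% for Slc26a3.

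The sodium/proton exchangers on the luminal side differed in where the DSS + EA mice lay relative to the control mice. Slc9a3 (NHE3), which takes up sodium in exchange for protons, lies on chromosome 13 (chr13:74121457-74169442, plus strand). It had 49.3, 45.2 and 47.5 CPM in the control mice, 53.4, 11.1 and 1.87 CPM in the DSS mice and 65.1, 112 and 73.3 CPM in the DSS + EA mice. DSS mouse 1 lay above every control mouse, DSS mice 2 and 3 lay below them, and all 3 DSS + EA mice lay above every mouse of the other groups. The change with DSS was not called, with a log2 fold change of -1.11 (SE 0.77, adjusted p = 0.271) and a 95% interval of -2.82 to 0.60. Neither was the difference of DSS + EA from DSS, 1.93 (SE 0.78, adjusted p = 0.0763), or from control, 0.82 (SE 0.75, adjusted p = 0.633), with 95% intervals of 0.20 to 3.66 and -0.85 to 2.48. These results turned on DSS mouse 1: without it Slc9a3 was called lower with DSS (-2.78, adjusted p = 0.00223) and higher with DSS + EA (3.57, adjusted p = 0.000896). With all mice, DESeq2 called the DSS + EA against DSS difference (1.92, adjusted p = 0.0385), as did edgeR without the filter on low counts (adjusted p = 0.0470), and a fit of only the DSS + EA and control mice called Slc9a3 higher with DSS + EA (adjusted p = 0.0453).

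Slc9a2 (NHE2), the other luminal sodium/proton exchanger, lies on chromosome 1 (chr1:40680574-40769273, plus strand). Its levels were 74.97, 52.5 and 75.9 CPM in the control mice, 27.02, 9.56 and 4.68 CPM in the DSS mice and 51.4, 42.2 and 26.96 CPM in the DSS + EA mice. The DSS mice all lay below the control mice, while DSS mouse 1 and DSS + EA mouse 3 met at almost the same level. Slc9a2 fell 4.96-fold with DSS, a log2 fold change of -2.31 (SE 0.52, adjusted p = 0.00653), in a range from -3.20 (without DSS mouse 1) to -1.91 (without DSS mouse 3) with 1 mouse left out. It rose 2.94-fold from DSS to DSS + EA, a log2 fold change of 1.56 (SE 0.52, adjusted p = 0.0403), and this call was lost in 8 of the 9 fits that left out 1 mouse, all but that without DSS mouse 1, in which the log2 fold change ran from 1.16 (without DSS mouse 3) to 2.41 (without DSS mouse 1). The mean with DSS + EA was 59.3% of the control mean, and all 3 DSS + EA mice lay below all 3 control mice, a difference that was not called (log2 fold change -0.75, SE 0.49, adjusted p = 0.487, 95% interval -1.85 to 0.34).

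Aqp8, a water pore found in colonocytes, lies on chromosome 7 (chr7:123462291-123468004, plus strand). The control mice had 469.6, 478 and 349 CPM, the DSS mice 102, 29.98 and 1.25 CPM and the DSS + EA mice 404, 279 and 489 CPM. In counts, the DSS mice had 318, 138 and 4 reads of Aqp8, so the level of DSS mouse 3 rests on 4 reads, close to the floor of 3 counts used for a level (between 0.652 and 1.15 CPM, depending on the library). Aqp8 fell 9.74-fold with DSS (log2 fold change -3.28, SE 0.94, 95% interval -5.37 to -1.19, adjusted p = 0.0192) and was 8.80-fold higher with DSS + EA than with DSS (log2 fold change 3.14, SE 0.93, 95% interval 1.06 to 5.22, adjusted p = 0.0264). No DSS mouse overlapped a mouse of either other group. The call with DSS was lost without DSS mouse 2 (adjusted p = 0.0710), and the call of DSS + EA against DSS without DSS mouse 2 (0.0927), without DSS + EA mouse 1 (0.0541), without DSS + EA mouse 3 (0.0730) and in a fit of the 2 groups alone (0.0628). The log2 fold changes in these fits ran from -4.73 (without DSS mouse 1) to -2.71 (without DSS mouse 3) and from 2.57 (without DSS mouse 3) to 4.56 (without DSS mouse 1).

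Aqp4, a water pore of basolateral epithelial membranes that is best known from astrocytes, lies on chromosome 18 (chr18:15389496-15410982, minus strand). It changed in the same directions with a smaller spread. Its levels were 165, 197 and 101 CPM in the control mice, 54.4, 32.6 and 19.04 CPM in the DSS mice and 159, 118 and 204 CPM in the DSS + EA mice. The highest DSS mouse lay below the lowest mouse of either other group. The log2 fold changes were -2.13 (SE 0.39, adjusted p = 0.00239) with DSS and 2.18 (SE 0.39, adjusted p = 0.00311) for DSS + EA against DSS, and both stayed called with any 1 mouse left out, from -2.56 (without DSS mouse 1) to -1.83 (without DSS mouse 3) and from 1.89 (without DSS mouse 3) to 2.58 (without DSS mouse 1). The mean with DSS + EA was 104% of the control mean for Aqp4 and 90.4% for Aqp8.

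Scnn1a, the alpha subunit of ENaC, lies on chromosome 6 (chr6:125320659-125344943, plus strand). It stood at 18.8, 17.95 and 10.7 CPM in the control mice, 7.40, 5.21 and 2.18 CPM in the DSS mice and 10.04, 9.71 and 7.61 CPM in the DSS + EA mice. The 3 groups did not overlap: every DSS + EA mouse lay between the DSS mice and the control mice. Scnn1a fell 3.21-fold with DSS, a log2 fold change of -1.68 (SE 0.39, adjusted p = 0.00778), and this call held with any 1 mouse left out (from -2.04 without DSS mouse 1 to -1.35 without DSS mouse 3). The differences of DSS + EA from DSS, 0.88 (SE 0.41, adjusted p = 0.114), and from control, -0.80 (SE 0.38, adjusted p = 0.318), were not called, with 95% intervals of -0.02 to 1.78 and -1.65 to 0.04. Without DSS mouse 1 the first of these was called (1.20, adjusted p = 0.0414).

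Cftr, the chloride and bicarbonate channel through which crypt cells secrete, also lies on chromosome 6 (chr6:18170687-18322768, plus strand). The control mice had 35.1, 38.2 and 41.00 CPM, with DSS the levels were 13.5, 8.91 and 4.99 CPM, and with DSS + EA they were 26.8, 33.6 and 20.9 CPM. These 3 groups did not overlap either, with the DSS + EA mice in the middle. Cftr had the smallest adjusted p of the 10 genes in DSS against control, where it fell 4.16-fold (log2 fold change -2.06, SE 0.33, adjusted p = 0.00114), and it was 2.96-fold higher with DSS + EA than with DSS (log2 fold change 1.57, SE 0.33, adjusted p = 0.00623). Both calls were kept with any 1 mouse left out, and the log2 fold changes ran from -2.41 (without DSS mouse 1) to -1.77 (without DSS mouse 3) and from 1.28 (without DSS mouse 3) to 1.88 (without DSS mouse 1). The DSS + EA mean was 71.2% of the control mean, a difference that was not called (log2 fold change -0.49, SE 0.31, adjusted p = 0.470, 95% interval -1.18 to 0.20).

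Slc12a2 (NKCC1), which loads crypt cells with chloride from the blood side and is also expressed outside the epithelium, lies on chromosome 18 (chr18:57878678-57946821, plus strand). Its levels were 55.9, 32.9 and 35.3 CPM in the control mice, 28.6, 37.6 and 13.4 CPM in the DSS mice and 27.4, 28.8 and 21.6 CPM in the DSS + EA mice. DSS mouse 2 lay within the control range, and the DSS + EA mice lay within the DSS range. All 3 DSS + EA mice lay below all 3 control mice, with a mean of 62.6% of the control mean. No difference was called. The log2 fold change was -0.64 (SE 0.36, adjusted p = 0.177) with DSS, -0.04 (SE 0.36, adjusted p = 0.938) for DSS + EA against DSS and -0.68 (SE 0.36, adjusted p = 0.377) for DSS + EA against control, with 95% intervals of -1.43 to 0.16, -0.84 to 0.76 and -1.48 to 0.12.

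Atp12a, the catalytic subunit of the non-gastric proton/potassium pump, which reclaims potassium in the distal colon, lies on chromosome 14 (chr14:56365068-56388550, plus strand). Its counts were 172, 90 and 4 in the control mice, 4, 13 and 2 in the DSS mice and 51, 71 and 156 in the DSS + EA mice. These correspond to 43.7, 29.9 and 1.53 CPM in the control mice, 1.29, 2.82 and 0.624 CPM in the DSS mice and 15.5, 26.5 and 49.5 CPM in the DSS + EA mice, and the 2 reads of DSS mouse 3 are under the floor of 3 counts. Control mouse 3 lay within the range of the DSS mice, while the DSS + EA mice lay above all DSS mice. The log2 fold change was -3.89 (SE 0.99, adjusted p = 0.0114) with DSS (95% interval -6.09 to -1.69) and 4.15 (SE 0.99, adjusted p = 0.0106) for DSS + EA against DSS (95% interval 1.94 to 6.36), the widest intervals among the 10 genes in these 2 comparisons. Both calls held with any 1 mouse left out, in ranges from -4.68 (without DSS mouse 2) to -3.22 (without control mouse 1) and from 3.57 (without DSS + EA mouse 3) to 4.95 (without DSS mouse 2). In control mouse 3, 2 other transport genes, named here after their values were seen, were also low: Fxyd4, a small modulator of the sodium pump, had 44.98, 51.9 and 0 CPM in the control mice, and Best2, a bestrophin anion channel, had 21.3, 16.96 and 3.83 CPM.

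**Figure D2:**
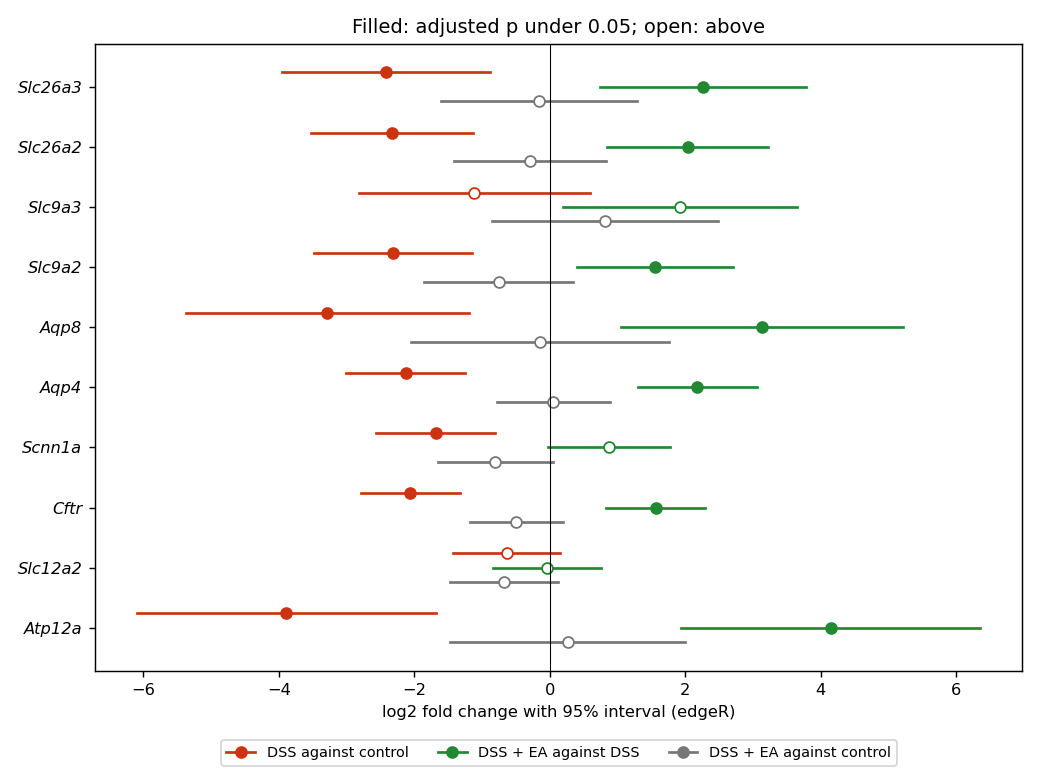
Log2 fold changes (horizontal axis) of the 10 transport genes in the 3 comparisons, with 95% intervals from edgeR, filled where the adjusted p was under 0.05. With DSS 8 genes were called, all lower, with DSS + EA against DSS 7 were called, all higher, and no interval of DSS + EA against control excluded 0.

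The coefficient of variation between mice was largest in the DSS group for 9 of the 10 genes, with a median of 78.1% beside 20.5% in the control and 25.0% in the DSS + EA group, and Atp12a was the exception. DSS mouse 3 was the lowest DSS mouse for all 10 genes, where over all genes tested it was the lowest for 34.3%. DSS mouse 1 was the highest for 8 genes and DSS mouse 2 for the other two, Slc12a2 and Atp12a. The median of the 10 genes, each as a percentage of its control mean, was 39.2% in DSS mouse 1, 18.7% in DSS mouse 2 and 6.06% in DSS mouse 3. In the DSS + EA mice it was 75.4%, 82.5% and 76.4%.

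Markers of several cell types moved with these differences. The summed level of 7 pan-epithelial markers was 4812 to 5632 CPM in the control mice, 3821, 2179 and 996 CPM in DSS mice 1, 2 and 3, and 3789.6 to 4994 CPM in the DSS + EA mice. Of these 7, 3 were called lower in DSS against control and 2 higher in DSS + EA against DSS. Surface colonocyte markers summed to 14249 to 32708 CPM, 11479, 3884 and 2293 CPM and 20526 to 25174 CPM in the same order, with 6 of 7 lower in DSS against control and 7 of 7 higher in DSS + EA against DSS. Goblet cell markers summed to 13194 to 18449 CPM, 3643, 1986 and 515 CPM and 12002 to 13251 CPM, with 6 of 6 lower and 5 of 6 higher. These sums hide unlike genes. The DSS + EA mean was 11.8% of the control mean for Clca1, 19.5% for Fcgbp, 38.8% for Muc2 and 64.3% for Spdef. It was 115% for Tff3 and 160% for Zg16. Among surface colonocyte markers it ran from 50.0% for Car1 to 193% for Lypd8. Among pan-epithelial markers it ran from 54.4% for Krt18 to 150% for Epcam, which had 837, 183 and 148 CPM in DSS + EA mice 1, 2 and 3. In DSS + EA against control 0 of these goblet and surface markers were called, though Clca1 was a lower DEG. Of the epithelial markers, Alpi had 1.61, 0.652 and 0 CPM in the DSS mice and all others were above 0 in every mouse, so epithelial RNA was present in each sample.

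Neutrophil markers went the other way, from 6.10 to 10.6 CPM in the control mice to 2259, 21739 and 24854 CPM in the DSS mice and 545 to 949 CPM in the DSS + EA mice, with all 5 tested markers of 6 called higher with DSS. Leukocyte markers stood at 175 to 223 CPM, 521, 1427 and 3147 CPM and 358 to 469 CPM (6 of 6 higher with DSS), fibroblast markers at 753 to 824 CPM, 4079, 4851 and 6796 CPM and 1612 to 1703 CPM (6 of 6 higher), and smooth muscle markers at 2844 to 3526 CPM, 1802, 1136 and 2176 CPM and 2210.4 to 2273 CPM (5 of 6 lower). By these sums DSS mouse 3 was the lowest DSS mouse in epithelial markers and the highest in neutrophil, leukocyte and fibroblast markers. Not every marker followed its sum: Col1a1 was lowest in DSS mouse 3 (83.6 CPM, beside 102 and 127 CPM in DSS mice 1 and 2). Pancreatic acinar markers summed to 119.9 to 262 CPM in the control and 41.8 to 94.6 CPM in the DSS mice, nearly all of it Cela1, and to 389.9, 18688 and 10231 CPM in DSS + EA mice 1, 2 and 3. In control and DSS mice the defining pancreatic genes Cpa1, Pnlip, Prss2, Amy2a5 and Ctrb1 were at 0 or near it. The part of these markers in the changes of the 10 genes was not tested. The 13 mitochondrial genes took 0.701% to 1.41% of counts.

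**Figure D3:**
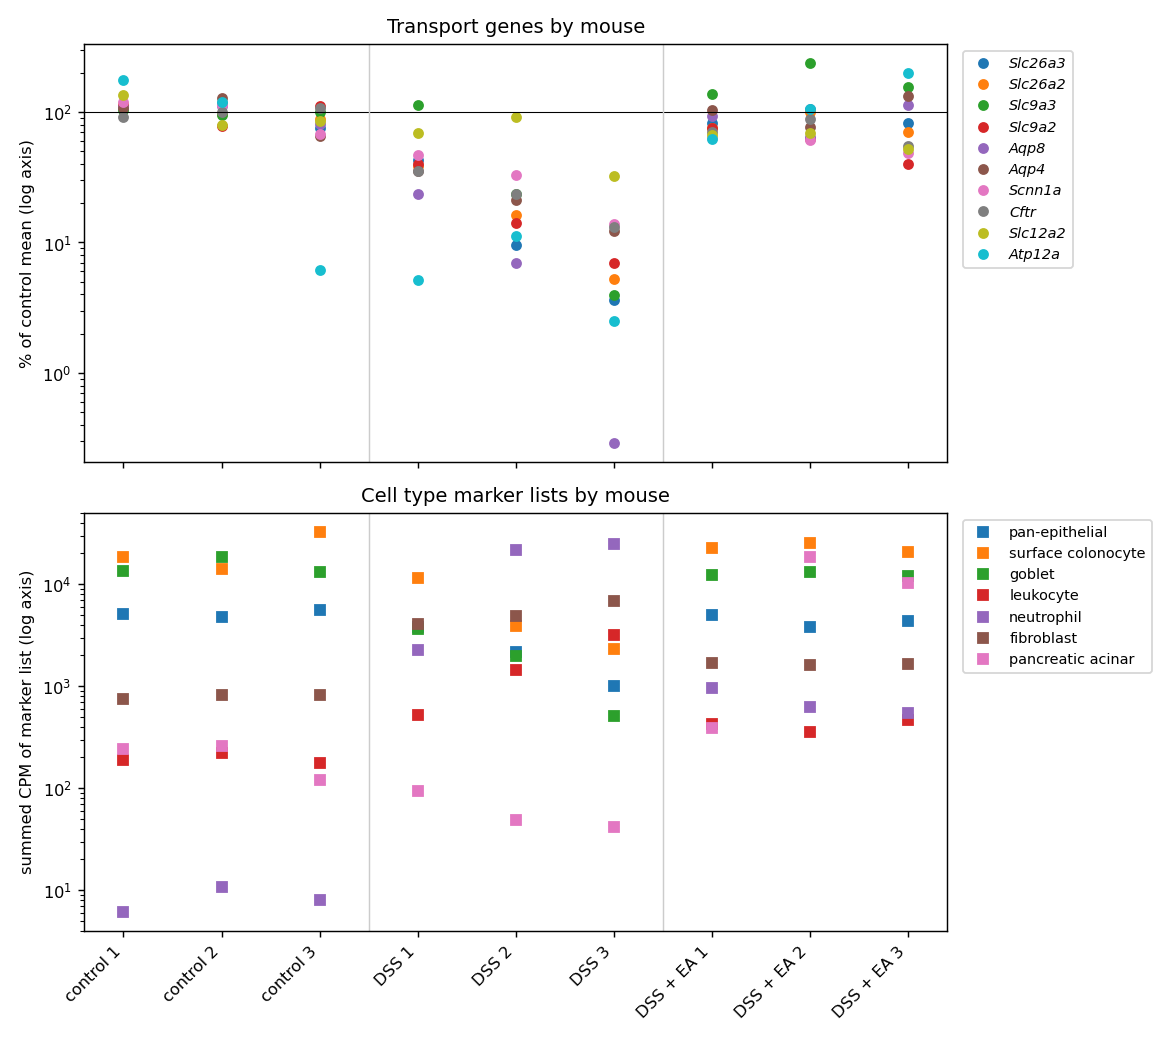
The upper panel gives each of the 10 transport genes as a percentage of its control mean in each mouse, and the lower panel the summed CPM of 7 marker lists, both on log axes. In DSS mice 1, 2 and 3 the median transport gene stood at 39.2%, 18.7% and 6.06%, beside pan-epithelial sums of 3821, 2179 and 996 CPM.

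An alternative chosen after the data were seen scaled each library to its pan-epithelial marker sum in place of TMM, which moved the median log2 fold change of all genes to 1.53 with DSS and to -1.29 for DSS + EA against DSS. On that scale 5 of the 10 genes were still called lower with DSS, beside 3.16% of all genes called lower and 56.1% called higher. They were Aqp8 (-2.57, adjusted p = 0.00267), Atp12a (-2.71, 0.0106), Slc26a3 (-1.60, 0.0140), Slc26a2 (-1.35, 0.0258) and Slc9a2 (-1.27, 0.0380). Aqp4 (-0.93, adjusted p = 0.107), Cftr (-0.83, 0.162) and Scnn1a (-0.52, 0.416) lost their calls, and the sign of Slc12a2 turned (0.66, 0.269). For DSS + EA against DSS, Aqp8 (2.65), Atp12a (3.21), Slc26a3 (1.70), Slc26a2 (1.33) and Slc9a3 (1.46) were called higher, beside 2.98% of all genes. Slc9a2 (0.76, adjusted p = 0.209), Aqp4 (1.19, 0.0517) and Cftr (0.60, 0.320) were not. The scaling changes which level is taken as unchanged and does not count cells.

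**Figure D4:**
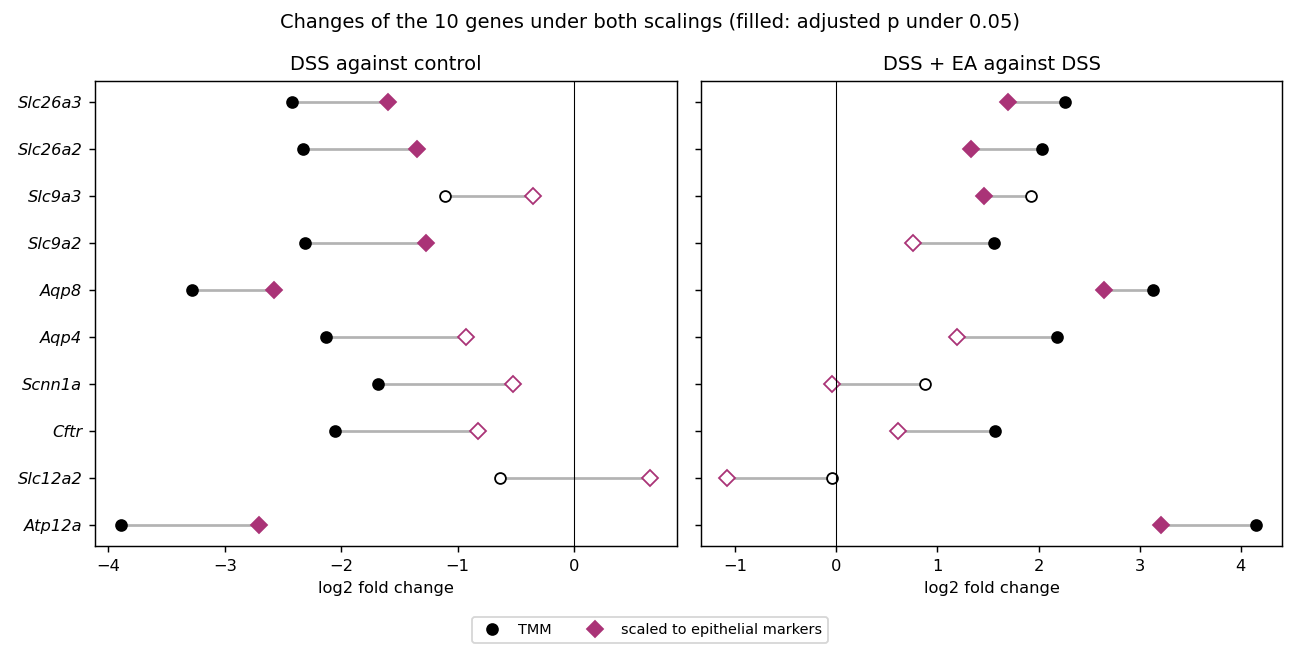
Log2 fold changes (horizontal axes) of the 10 transport genes with TMM scaling (circles) and with libraries scaled to 7 pan-epithelial markers (diamonds), filled where the adjusted p was under 0.05. With the second scaling 5 genes remained called in DSS against control, and Slc12a2 moved from -0.64 to 0.66.

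Ratios of 2 genes within a mouse do not depend on how libraries are scaled. They compare mice only, since the counts are not per length. Of 5 pairs computed, 3 had groups that did not overlap in some comparison, for which the exact two-sided permutation test over 3 against 3 mice gives its smallest possible p of 0.1. The counts of Aqp8 over Aqp4 were 2.85, 2.43 and 3.45 in the control mice, 1.88, 0.920 and 0.0656 in the DSS mice and 2.54, 2.36 and 2.40 in the DSS + EA mice. Aqp8 was thus lower relative to Aqp4 in every DSS mouse than in any other mouse (mean log2 difference -2.57 with DSS and 2.33 for DSS + EA against DSS, exact permutation p = 0.1 for each). The size of both mean differences leans on DSS mouse 3, whose ratio of 0.0656 is 4 reads of Aqp8 over 61 of Aqp4.

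The counts of Cftr over Slc12a2, the exit and entry steps of chloride secretion, were 0.627, 1.16 and 1.16 in the control mice, 0.472, 0.237 and 0.372 in the DSS mice and 0.978, 1.17 and 0.971 in the DSS + EA mice. The DSS mice lay lowest here too (mean log2 differences -1.45 and 1.58, exact permutation p = 0.1 for each). Slc12a2 is also expressed outside the epithelium, so in bulk tissue this ratio can move with cell makeup, whose part was not tested. Slc9a3 over Slc9a2 was 0.658, 0.861 and 0.626 in the control mice, 1.98, 1.16 and 0.400 in the DSS mice and 1.27, 2.66 and 2.72 in the DSS + EA mice. The DSS mice spread across both other groups, and the DSS + EA mice all lay above the control mice (mean log2 difference 1.56, exact permutation p = 0.1). For this pair the mean log2 difference was 0.46 with DSS (exact permutation p = 0.6) and 1.11 for DSS + EA against DSS (exact permutation p = 0.2). Slc26a3 over Slc26a2 and Slc26a3 over Cftr overlapped between the groups in every comparison, with no exact permutation p below 0.2. A Benjamini-Hochberg adjustment over these tests cannot bring any of them under 0.1.

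**Figure D5:**
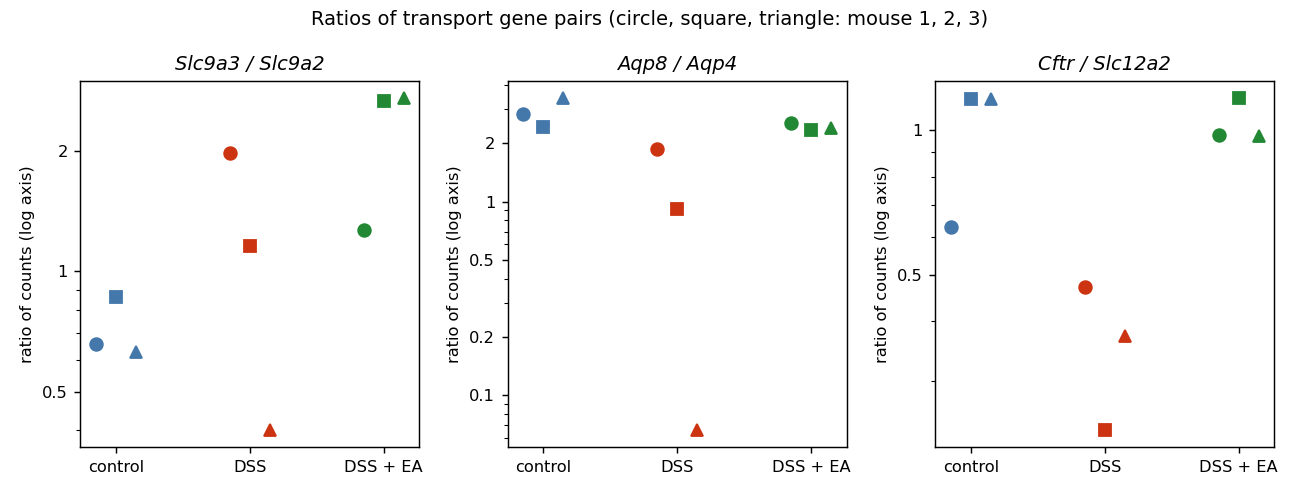
Ratios of counts (log vertical axes) of 3 pairs of transport genes in each mouse, with symbols for mouse 1, 2 and 3. Aqp8 over Aqp4 and Cftr over Slc12a2 were lowest in the 3 DSS mice, and Slc9a3 over Slc9a2 was higher in the 3 DSS + EA mice (1.27, 2.66 and 2.72) than in the 3 control mice.

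A list of 50 other genes of colon salt and water transport was read in the same fit. All but Best4, 49 in number, were found, and 41 passed the filter. Compared with the control group, 21 of the 41 (51.2%, beside 40.9% of all genes) were called with DSS, 3 higher (beside 21.5%) and 18 lower (beside 19.5%), with a median log2 fold change of -1.06. Compared with the DSS group, 15 of the 41 (36.6%, beside 35.5%) were called with DSS + EA, 13 higher (beside 17.2%) and 2 lower (beside 18.3%), with a median of 0.90. Counted in both directions together, the shares called lay near those of all genes, more so in the second comparison. By direction they did not: 43.9% of the 41 were lower and 7.32% higher with DSS, and 31.7% were higher and 4.88% lower with DSS + EA against DSS. Between DSS + EA and control edgeR called 0 of the 41 (4 at an unadjusted p under 0.05, 1 with DESeq2). The count of 21 was 12 without control mouse 1, 13 without control mouse 3 and 13 without DSS mouse 2, and the count of 15 was 27 without DSS mouse 1 and 8 without DSS + EA mouse 1.

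Of the genes lower with DSS, Kcne3 had the smallest P. It encodes the partner of the basolateral potassium channel KCNQ1 that keeps the driving force for chloride secretion, and its levels were 181, 223 and 128 CPM in the control mice, 37.00, 35.2 and 32.5 CPM in the DSS mice and 153, 155 and 156 CPM in the DSS + EA mice. The 3 DSS mice lay close together, unlike for most of the 10 transport genes, and the log2 fold changes were -2.34 (SE 0.22, adjusted p = 7.71e-05) with DSS and 2.15 (SE 0.22, adjusted p = 0.000337) for DSS + EA against DSS. Kcnq1 itself, named here after its values were seen, was not called (log2 fold changes -0.63 and -0.14, adjusted p = 0.279 and 0.831). Pdzd3, a scaffold that binds NHE3 and guanylate cyclase C, had 17.03, 17.3 and 16.5 CPM in the control mice, 4.50, 1.09 and 0.936 CPM in the DSS mice and 20.1, 13.1 and 16.5 CPM in the DSS + EA mice, with log2 fold changes of -3.0 (SE 0.47, adjusted p = 0.00105) and 2.97 (SE 0.47, adjusted p = 0.00176). With 1 mouse left out these ran from -3.99 (without DSS mouse 1) to -2.63 (without DSS mouse 2) and from 2.6 (without DSS mouse 2) to 3.93 (without DSS mouse 1), and both stayed called. In counts, the DSS mice had only 14, 5 and 3 reads of Pdzd3, so the level of DSS mouse 3 lies at the floor of 3 counts. Ano1, a calcium-activated chloride channel that is also found in pacemaker cells of the gut wall, fell with DSS (log2 fold change -1.92, SE 0.26, adjusted p = 0.000489), with 42.2, 36.6 and 30.7 CPM in the control mice, 11.3, 11.3 and 6.24 CPM in the DSS mice and 18.9, 22.04 and 20.3 CPM in the DSS + EA mice. It rose from DSS to DSS + EA (log2 fold change 1.08, SE 0.26, adjusted p = 0.0115), but all 3 DSS + EA mice lay below all control mice, with a mean of 55.9% of the control mean, a difference that was not called (log2 fold change -0.84, SE 0.25, adjusted p = 0.108). Without DSS mouse 3 that difference was called (-0.84, adjusted p = 0.0377), and its adjusted p ranged from 0.0206 to 0.395 over the alternatives tried.

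The partners of Scnn1a in ENaC had low counts. Scnn1b had 15, 13 and 11 reads in the control mice, 8, 2 and 3 in the DSS mice and 25, 30 and 25 in the DSS + EA mice. The 2 reads of DSS mouse 2 are under the floor of 3 counts. Scnn1b (beta subunit) had 3.81, 4.32 and 4.22 CPM in the control mice, 2.57, 0.435 and 0.936 CPM in the DSS mice and 7.61, 11.2 and 7.93 CPM in the DSS + EA mice. It fell with DSS (log2 fold change -1.70, SE 0.52, adjusted p = 0.0260) and rose with DSS + EA against DSS (log2 fold change 2.81, SE 0.50, adjusted p = 0.00276). With 1 mouse left out these ran from -2.58 (without DSS mouse 1) to -1.21 (without DSS mouse 2) and from 2.32 (without DSS mouse 2) to 3.66 (without DSS mouse 1). The first call was lost in 5 of the 9 fits that left out 1 mouse, those without any 1 of the control mice, DSS mouse 2 or DSS mouse 3, and its adjusted p ranged from 0.00204 to 0.0722 over the alternatives tried. Scnn1g (gamma subunit) did not pass the filter and had 0.254, 0.665 and 0 CPM in the control mice, 0.322, 1.52 and 0 CPM in the DSS mice and 2.43, 6.35 and 4.44 CPM in the DSS + EA mice, so that the DSS + EA mice were highest for both. Every DSS + EA mouse exceeded every control mouse for Scnn1b, while for Scnn1a every DSS + EA mouse lay below every control mouse. Neither difference from control was called in the fit of all 9 libraries (for Scnn1b log2 fold change 1.11, SE 0.43, adjusted p = 0.224). These 2 groups lay apart for 32.2% of all genes. Sgk1, the kinase that keeps ENaC at the membrane and is also induced by glucocorticoids and stress in many cells, rose with DSS, from 44.98, 64.8 and 77.4 CPM to 355, 134 and 192 CPM (log2 fold change 1.86, SE 0.42, adjusted p = 0.00626), and had 65.1, 155 and 94.5 CPM in the DSS + EA mice (log2 fold change -1.11, SE 0.41, adjusted p = 0.0571 against DSS, not called). That difference was called without DSS mouse 2 (-1.38, adjusted p = 0.0357) and without DSS + EA mouse 2 (-1.54, adjusted p = 0.0298).

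The sodium pump makes the gradient that the luminal transporters use. Its beta subunit in most epithelia, Atp1b1, had 404, 333 and 298 CPM in the control mice, 268, 178 and 52.1 CPM in the DSS mice and 381, 347 and 289 CPM in the DSS + EA mice. Its 3 DSS mice lay below all control mice, but neither difference was called, at -1.06 (SE 0.45, adjusted p = 0.0862) and 1.03 (SE 0.45, adjusted p = 0.0988). Without DSS mouse 1 both were called (-1.57, adjusted p = 0.0138, and 1.51, adjusted p = 0.0174). Atp1b3, a beta subunit that leukocytes also express, had 59.97, 51.5 and 62.1 CPM in the control mice, 112, 181 and 275 CPM in the DSS mice and 82.5, 71.3 and 53.9 CPM in the DSS + EA mice. It rose with DSS (log2 fold change 1.71, SE 0.31, adjusted p = 0.00215) and fell from DSS to DSS + EA (log2 fold change -1.45, SE 0.31, adjusted p = 0.00633). Within the DSS group its highest mouse was mouse 3. That mouse also had the highest neutrophil, leukocyte and fibroblast marker sums and the lowest pan-epithelial sum of the DSS mice. The cells behind the Atp1b3 difference were not tested. Slc9a8 (NHE8), a sodium/proton exchanger of intracellular and luminal membranes found in many cell types, had 9.15, 10.97 and 9.20 CPM in the control mice, 21.2, 15.2 and 28.4 CPM in the DSS mice and 12.5, 14.9 and 10.2 CPM in the DSS + EA mice. It also rose with DSS (log2 fold change 1.14, SE 0.28, adjusted p = 0.00954) and fell from DSS to DSS + EA (log2 fold change -0.78, SE 0.27, adjusted p = 0.0486), opposite to Slc9a2, and the second call was lost in 7 of the 9 fits that left out 1 mouse, all but those without DSS mouse 1 or DSS mouse 2. With libraries scaled to the pan-epithelial markers, 8 of the 41 other transport genes were called higher with DSS (19.5%, beside 56.1% of all genes) and 3 lower (7.32%, beside 3.16%). For DSS + EA against DSS on that scale, 6 were called higher (14.6%, beside 2.98% of all genes) and 7 lower (17.1%). Over all genes 5994 were called there, 6.26% of them higher.

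The genes whose levels followed those of 3 transport genes most closely over the 9 libraries, by Pearson's r of log2 CPM among 11171 named genes, are given as a description, since the 9 libraries share the group differences and their cell makeup. For Slc26a3 they were Eif4ebp3 (r = 0.994), Rab25 (0.994), a small GTPase of epithelial vesicle recycling, and Slc35a2 (0.993), a Golgi carrier of UDP-galactose. For Aqp8 they were Hpdl (0.992), Sdsl (0.990) and Muc4 (0.989), a membrane mucin. For Cftr they were Nipsnap1 (0.992), Acer1 (0.992), an alkaline ceramidase, and Rida (0.989). Among the 10 genes themselves r was highest between Slc26a3 and Slc26a2 (0.990) and lowest between Slc12a2 and Atp12a (0.354).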

How the data were processed

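Per the labels and the methods, total RNA from colon tissue of 9 mice was reverse transcribed to full-length cDNA, PCR-amplified and read by Nanopore, and the labels name the mm10 build. The authors deposited unnormalized whole-number read counts per gene. The aligner, counting tool, annotation and use of strand are not given in the sources used here, so reads of overlapping or near-identical genes may have been divided between them. Of 27733 lines, 14 without counts were skipped, and of 27719 genes 5620 had no count. No 2 libraries held identical values. PCR copies cannot be told from independent molecules, so the floor of 3 counts covers counting error only.

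Counts were tested with edgeR 4.0.16 in R 4.3.3 (TMM, filterByExpr by group, prior count 0.125, quasi-likelihood F test, 1 fit over the 9 libraries, no covariate), which kept 12566 genes. The SE is the log2 fold change divided by the square root of F. The functions were tested on simulated data. Sequences and figures were handled in Python 3.11.15 (pandas 2.3.3, matplotlib 3.10.9). Alternatives were DESeq2 1.42.0 (the tool of the paper's methods), RLE factors, library totals, no filter, a filter at a mean of 20 counts, a fit of just the 2 groups, the DEG thresholds, a prior count of 2, a block for the replicate number, leaving out each mouse, and the pan-epithelial scaling. The genes named are the 10 transport genes, of the other transport list the 3 called genes of smallest P in each direction of each comparison with Scnn1b, Scnn1g and Atp1b1, and the 3 genes most like Slc26a3, Aqp8 and Cftr (log2 CPM, prior count 2). The genes, lists and tests were chosen with earlier results of these data known. The values of 1 gene of the other transport list are not reported here. The study's human samples and protein measurements were not analysed here.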

Additional observations from a re-analysis of the deposited data

How the results depend on the processing

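The calls of the 10 genes rest on 3 mice a group and on DSS mice that differ widely, and low counts limit Atp12a in control mouse 3 and the DSS mice and Aqp8 in DSS mouse 3. Of the alternatives, RLE factors, library totals, a mean of at least 20 counts and a prior count of 2 left the counts of the 10 genes called at 8, 7 and 0 in DSS against control, DSS + EA against DSS and DSS + EA against control. The DEG thresholds gave 2, 2 and 0, a fit of only the 2 groups compared 8, 4 and 1, and the pan-epithelial scaling, chosen after the data were seen, 5, 5 and 0. DESeq2 and no filter each gave 8, 8 and 0. With 1 mouse left out the counts ran from 6 to 9, from 3 to 9 and from 0 to 0. For the other transport genes (21, 15 and 0), the DEG thresholds gave 2, 3 and 0, the 2 groups alone 12, 11 and 5, DESeq2 21, 20 and 1, no filter 22, 20 and 1, and the pan-epithelial scaling 11, 13 and 0. With 1 mouse left out they ran from 12 to 29, from 8 to 27 and from 0 to 2. Over all genes, a fit of only the DSS + EA and control groups called 1179 genes, 68.9% of them higher, against 457 with 82.5% higher. The cause was not tested.

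Among the 10 genes and the other transport genes named by the rule, the signs that turned were of values that were not called. Over all 41 other transport genes, the pan-epithelial scaling turned the sign of 2 of the 21 called in DSS against control (Slc4a2 and Slc12a7) and 1 of the 15 called in DSS + EA against DSS (Slc12a7), named after their values were seen, and neither was called on that scale. Slc12a2 in DSS + EA against DSS was 0.0357 with no filter and 0.0241 with the replicate block. With no filter, Atp1b1 (0.0128) and Pdzd3 (0.0096) turned in DSS + EA against control. With the pan-epithelial scaling, Slc12a2 (0.66) and Atp1b1 (0.0158) turned in DSS against control, Scnn1a (-0.0466) in DSS + EA against DSS, and Slc26a3 (0.10), Aqp8 (0.0712), Atp1b1 (0.21), Kcne3 (0.0347) and Pdzd3 (0.19) in DSS + EA against control, as that scaling moves all genes. With 1 mouse left out, Slc12a2 ran from -0.36 to 0.30 in DSS + EA against DSS. In DSS + EA against control the ranges were -0.12 to 0.10 for Atp1b1, -0.19 to 0.23 for Aqp4, -0.33 to 0.94 for Atp12a, -0.38 to 0.0195 for Aqp8 and -0.19 to 0.0836 for Pdzd3.

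The groups share replicate numbers in the labels, but same-numbered mice are different animals, and the correlations of their deviations from the group means ran from -0.160 to 0.105 over 9 pairs. With the replicate number as a block, 8, 7 and 0 of the 10 genes and 21, 17 and 0 of the other transport genes were called, and 4543, 3829 and 364 of all genes against 5144, 4457 and 457 without the block.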

Other observations

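Other transport genes outside the rule for named genes are given as values, chosen after they were seen. Guca2a, the precursor of guanylin, which raises chloride secretion through guanylate cyclase C, had 4436, 3894 and 6047 CPM in the control mice, 1277, 309 and 68.97 CPM in the DSS mice and 1864, 3383 and 1889.9 CPM in the DSS + EA mice. It fell with DSS (log2 fold change -3.12, SE 0.82, adjusted p = 0.0133), and its DSS + EA mice lay above all DSS mice and below all control mice (against DSS log2 fold change 2.11, SE 0.79, adjusted p = 0.0606, not called). Slc51a, a subunit of the basolateral bile acid exporter, had 47.01, 18.6 and 93.1 CPM in the control mice, 19.6, 1.96 and 0 CPM in the DSS mice and 132, 138 and 65.03 CPM in the DSS + EA mice, with a log2 fold change of -2.92 (SE 1.02, adjusted p = 0.0440) for DSS against control and 4.0 (SE 1.05, adjusted p = 0.0159) for DSS + EA against DSS. The DSS mice had 61, 9 and 0 reads of Slc51a, the last under the floor of 3 counts, and DSS mouse 1 lay within the control range. Hsd11b2, the enzyme that shields the mineralocorticoid receptor from glucocorticoids, had 52.1, 39.9 and 35.3 CPM in the control mice, 25.1, 8.91 and 1.87 CPM in the DSS mice and 63.00, 58.6 and 34.9 CPM in the DSS + EA mice, and both its fall with DSS (log2 fold change -1.84, SE 0.63, adjusted p = 0.0393) and its rise from DSS to DSS + EA (log2 fold change 2.13, SE 0.63, adjusted p = 0.0255) were called. Kcnn4, a basolateral calcium-activated potassium channel, had 20.1, 16.96 and 13.03 CPM in the control mice, 3.22, 14.3 and 5.31 CPM in the DSS mice and 12.2, 3.36 and 2.85 CPM in the DSS + EA mice, so that the DSS + EA mice all lay below the control mice, and no difference was called (against control log2 fold change -1.43, SE 0.62, adjusted p = 0.274). Slc51b, the partner of Slc51a, had 97.8, 84.4 and 139 CPM in the control mice, 276, 73.4 and 34.3 CPM in the DSS mice and 270.3, 198 and 274 CPM in the DSS + EA mice and was not called in DSS against control (log2 fold change 0.25, SE 0.59, adjusted p = 0.759).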
